A study of Mus musculus with 12 samples.

Results

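The 10 genes described here, Ttr, Folr1, Kl, Sostdc1, F5, Clic6, Kcnj13, Aqp1, Tmem72 and Otx2, are known markers of the choroid plexus epithelium. They were taken by symbol from a list of such markers, and all 10 were found among the 21878 genes of each table. Hippocampal RNA had been sequenced from mice carrying a conditional double knockout (DKO) whose targets include Psen2, the Presenilin-2 gene, and from wild-type mice (WT). Animals had been anaesthetised with sodium pentobarbital at 30 mg per kg and killed at 9 p.m. (Night) or 9 a.m. (Day). The 12 libraries formed 4 groups of 3, named Night DKO, Night WT, Day DKO and Day WT. The sources used here do not give the Cre driver, the age or the sex of the mice. Nothing in the labels says that replicates are separate mice, so p-values measure the spread between these libraries only.

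The choroid plexus is a folded sheet of secretory epithelium that hangs in the brain ventricles and makes cerebrospinal fluid. In the lateral ventricle it attaches along the edge of the fimbria, next to the hippocampus. Its cells take up vitamins and hormones from fenestrated vessels, pass them to the fluid, and move ions and water across their apical face. In RNA from a whole piece of tissue, fewer cells of a type and less RNA per cell cannot be told apart.

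Values were FPKM, fragments scaled to the length of the transcript and to the fragments of the library, which allow levels of different genes to be compared. They summed to 151059 to 175692 per library, and the depth of sequencing is unknown. Psen2, a target of the knockout, averaged 0.477 ± 0.122 FPKM in Night DKO against 3.38 ± 0.381 FPKM in Night WT, and 0.391 ± 0.123 FPKM in Day DKO against 2.00 ± 0.756 FPKM in Day WT (SD, n = 3 each). All 14 listed genes of hippocampal neurons were measured, with a summed level of 177 to 239 FPKM per library. A pair of libraries stood apart: Day DKO replicate 2 had the lowest level of all 10 choroid plexus genes, and Night WT replicate 1 lacked Y-linked transcripts, with Ddx3y at 0.0225 FPKM against 6.83 to 8.56 FPKM in the other 11 libraries.

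Upstream sequence from RefSeq (GRCm38.p6, the build named in the submitters' processing notes) was given for 6 of the 10 genes, in 9 windows of 250 bases that end at a transcript start. It is shown for 3 of these 6 genes: the potassium channel gene Kcnj13 (chr1:87394730-87394979, minus strand), the co-receptor gene Kl (chr5:150952357-150952606, plus strand) and the transcription factor gene Otx2 (chr14:48665110-48665359, minus strand, 1 of its 4 windows). Each runs 5′ to 3′ on the strand of the gene, and capitals mark a match to a searched motif.
Kcnj13 promoter: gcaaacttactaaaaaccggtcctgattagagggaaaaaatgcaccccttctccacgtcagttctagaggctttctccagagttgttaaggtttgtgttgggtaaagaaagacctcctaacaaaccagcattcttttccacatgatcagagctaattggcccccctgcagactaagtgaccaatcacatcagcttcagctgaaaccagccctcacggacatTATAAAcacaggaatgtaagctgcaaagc
Kl promoter: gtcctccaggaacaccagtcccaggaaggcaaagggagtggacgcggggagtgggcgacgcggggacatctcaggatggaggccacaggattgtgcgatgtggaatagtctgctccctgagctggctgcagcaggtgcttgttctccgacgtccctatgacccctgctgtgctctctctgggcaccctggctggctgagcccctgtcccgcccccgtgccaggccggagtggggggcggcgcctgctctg
Otx2 promoter: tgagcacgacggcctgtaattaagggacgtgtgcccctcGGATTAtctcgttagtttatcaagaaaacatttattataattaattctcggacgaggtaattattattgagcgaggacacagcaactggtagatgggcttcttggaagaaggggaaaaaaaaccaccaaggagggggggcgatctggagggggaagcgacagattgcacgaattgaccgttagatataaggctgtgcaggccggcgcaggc
The capitals in Kcnj13 are a TATAAA box, 29 to 24 bases before the start. Those in Otx2 are TAATCC on the other strand (read here as GGATTA), the core bound by Otx-type homeodomain proteins, 211 to 206 bases before the start. TAATCC on either strand was in 1 of the 9 windows, against 6.25% of 32851 mouse windows of the same length. TATAAA on either strand was in 2 of 9, against 12.37%, and the E-box CACGTG in 0 of 9, against 6.02%. The second TATAAA was in an Otx2 window not shown, 192 to 187 bases before its start. Some of the Otx2 windows overlap, so the 9 are not all separate sequences. The motifs share no bases, and a match describes these letters only. The Kl window, with no match, was 66.8% G and C, the Kcnj13 window 45.2% and this Otx2 window 48.4%.

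Ttr (chr18:20664209-20674326) encodes transthyretin, which carries thyroxine and retinol-binding protein and is the chief secreted protein of the choroid plexus. Its level was 2901, 1832 and 2023 FPKM in Night DKO and 2934, 1303 and 3032 FPKM in Night WT. It was 786, 55.3 and 1724 FPKM in Day DKO and 2445, 2655 and 1069 FPKM in Day WT. Ttr was the most abundant gene of all in 8 of the 12 libraries and ranked 497 in Day DKO replicate 2. The 10 genes together held 1.13% to 1.73% of all FPKM in Night DKO, 0.764% to 1.86% in Night WT, 0.0369% to 1.06% in Day DKO and 0.700% to 1.68% in Day WT. The highest Ttr level was 54.8 times the lowest over 12 libraries and 3.86 times the lowest without Day DKO replicate 2. Within a group the span was 1.58-fold in Night DKO, 2.33-fold in Night WT, 31.2-fold in Day DKO and 2.48-fold in Day WT.

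Among the other genes for secreted and uptake proteins, Folr1 (chr7:101858331-101870788) encodes the folate receptor that carries folate into the fluid. Folr1 was at 9.31, 6.21 and 7.0 FPKM in Night DKO, 9.77, 4.76 and 10.2 FPKM in Night WT, 2.49, 0.406 and 4.88 FPKM in Day DKO, and 6.70, 8.65 and 3.25 FPKM in Day WT. Kl (chr5:150952607-150993817) encodes alpha-Klotho, the co-receptor for the hormone Fgf23, which is found in kidney, choroid plexus and some neurons. Kl was at 18.7, 11.9 and 12.7 FPKM in Night DKO, 18.8, 9.13 and 16.1 FPKM in Night WT, 8.0, 2.91 and 13.0 FPKM in Day DKO, and 19.6, 18.7 and 8.91 FPKM in Day WT. It had the narrowest spread of the 10, with a highest level 6.72 times the lowest. Sostdc1 (chr12:36314169-36318452), a secreted antagonist of BMP and Wnt signals, was at 8.88, 5.18 and 5.08 FPKM in Night DKO, 6.81, 3.61 and 7.02 FPKM in Night WT, 4.57, 0.783 and 4.25 FPKM in Day DKO, and 8.95, 12.5 and 4.21 FPKM in Day WT. F5 (chr1:164151835-164220277), coagulation factor V, ranged over 2.41 to 3.8 FPKM in Night DKO, 1.43 to 3.41 FPKM in Night WT, 0.135 to 2.06 FPKM in Day DKO and 1.55 to 3.94 FPKM in Day WT. All 4 of these genes had their lowest value in Day DKO replicate 2, as Ttr did.

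The genes for membrane proteins were low in the same libraries. Clic6 (chr16:92498147-92541241), of the chloride intracellular channel family, was at 18.8, 11.7 and 14.4 FPKM in Night DKO, 21.8, 8.32 and 19.0 FPKM in Night WT, 5.44, 1.14 and 10.6 FPKM in Day DKO, and 15.6, 17.1 and 6.60 FPKM in Day WT. Kcnj13 (chr1:87384577-87394729), the inward rectifier potassium channel Kir7.1 of the apical face, was at 8.50, 6.07 and 8.54 FPKM in Night DKO, 10.3, 4.91 and 9.55 FPKM in Night WT, 2.28, 0.351 and 5.11 FPKM in Day DKO, and 7.20, 7.46 and 3.68 FPKM in Day WT. Replicate 2 was the lowest library of Night DKO, Night WT and Day DKO in both genes, and replicate 3 the lowest of Day WT. Aqp1 (chr6:55336299-55348555), the apical water channel, ranged over 4.54 to 6.09 FPKM in Night DKO, 3.60 to 6.81 FPKM in Night WT, 0.122 to 4.24 FPKM in Day DKO and 1.72 to 6.03 FPKM in Day WT. Tmem72 (chr6:116691539-116716982), a transmembrane protein, ranged over 2.19 to 3.47 FPKM in Night DKO, 1.76 to 3.56 FPKM in Night WT, 0.0479 to 2.55 FPKM in Day DKO and 1.43 to 4.39 FPKM in Day WT. Aqp1 and Tmem72 had spans wider than that of Ttr, with highest levels 55.7 and 91.5 times the lowest. Without Day DKO replicate 2 these spans were 4.50 and 4.95, against 3.86 for Ttr, and those of Folr1, Clic6, Kcnj13 and Otx2 were 4.0 to 4.53.

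Otx2 (chr14:48656781-48667644), a homeodomain transcription factor that choroid plexus cells need to form, was the least abundant of the 10. It was at 1.98, 1.08 and 1.17 FPKM in Night DKO, 2.55, 0.882 and 1.93 FPKM in Night WT, 0.807, 0.162 and 1.15 FPKM in Day DKO, and 1.68, 2.11 and 0.606 FPKM in Day WT. By median over the 12 libraries the order was Ttr at 1927 FPKM, Clic6 at 13.0, Kl at 12.9, Kcnj13 at 6.64, Folr1 at 6.45, Sostdc1 at 5.13, Aqp1 at 4.74, Tmem72 at 2.57, F5 at 2.55 and Otx2 at 1.16 FPKM. Below Ttr the ranges over libraries of all neighbours in this order overlapped, and only Ttr stood clear of the next gene.

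**Figure D1:**
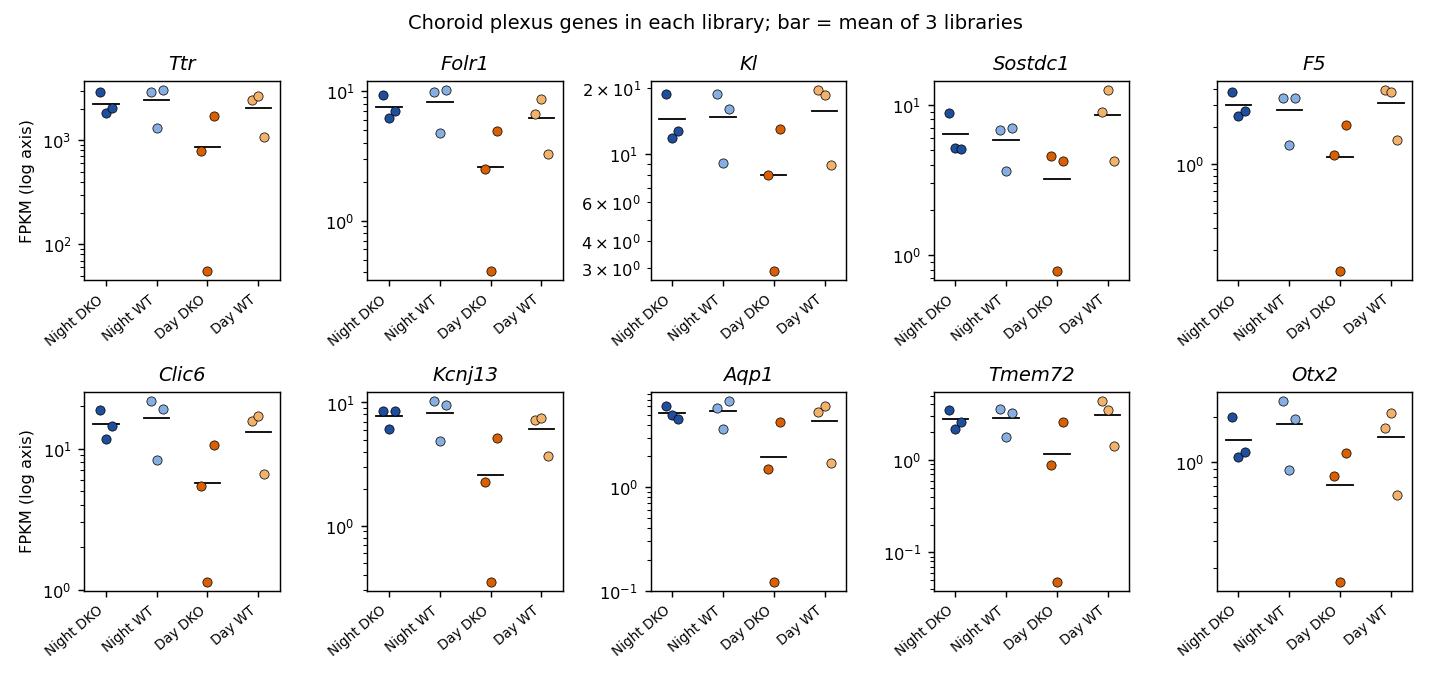
Level of each of the 10 choroid plexus genes (FPKM, logarithmic axis) in every library of Night DKO, Night WT, Day DKO and Day WT; each point is a library and the bar is the mean of 3. The lowest point of every panel is Day DKO replicate 2, and Ttr there is at 55.3 FPKM.

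The genes moved together between libraries of the same group. The library with the lowest Ttr was also the lowest for 9 of the 9 other genes in Night WT, Day DKO and Day WT, and for 7 of 9 in Night DKO, where Sostdc1 and Aqp1 were the exceptions. The library with the highest Ttr was the highest for 8 of 9 in Night DKO and in Day DKO, for 6 of 9 in Day WT and for 3 of 9 in Night WT. In Night WT, replicates 1 and 3 had close Ttr levels of 2934 and 3032 FPKM. As a description, log2(FPKM + 1) with the group mean subtracted correlated over the 12 libraries with Pearson's r of 0.798 to 0.992 (median 0.950) and Spearman's rho of 0.685 to 0.972 across the 45 pairs of genes. The closest pair was Folr1 and Clic6, and the loosest Ttr and Otx2. Without Day DKO replicate 2, r was 0.786 to 0.989. Both genes of a pair share the library and its scaling, and subtraction of 4 group means leaves fewer free points than libraries.

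In Day DKO replicate 2 the genes were not all lowered to the same degree. Tmem72 was at 1.85%, Aqp1 at 2.47% and Ttr at 2.73% of its median in the other 11 libraries. Kcnj13 was at 4.87%, F5 at 5.05%, Folr1 at 6.07% and Clic6 at 7.91%. Otx2 was at 13.8%, Sostdc1 at 15.1% and Kl at 22.3%. Tmem72, Aqp1, F5, Otx2, Kcnj13 and Folr1 were under 0.5 FPKM there, where the counting error is unknown, so their order is uncertain. The cotransporter gene Slc12a2, which hippocampal cells also express, was at 62.9% in the same library. A straight line of Kl on Ttr through the 11 other libraries met 3.48 FPKM of Kl where Ttr would be 0. Such lines met 1.40 FPKM for Sostdc1, 0.531 FPKM for Kcnj13 and 0.258 FPKM or less, down to -0.388 FPKM for Clic6, for the other 6 genes. At the Ttr level of Day DKO replicate 2 the lines missed the measured values. They were above them for Kl (3.76 against 2.91 FPKM), Sostdc1 (1.54 against 0.783), Kcnj13 (0.696 against 0.351), F5 (0.236 against 0.135), Aqp1 (0.375 against 0.122) and Tmem72 (0.282 against 0.0479). They were below them for Folr1 (0.121 against 0.406), Clic6 (-0.0139 against 1.14) and Otx2 (-0.0395 against 0.162).

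**Figure D2:**
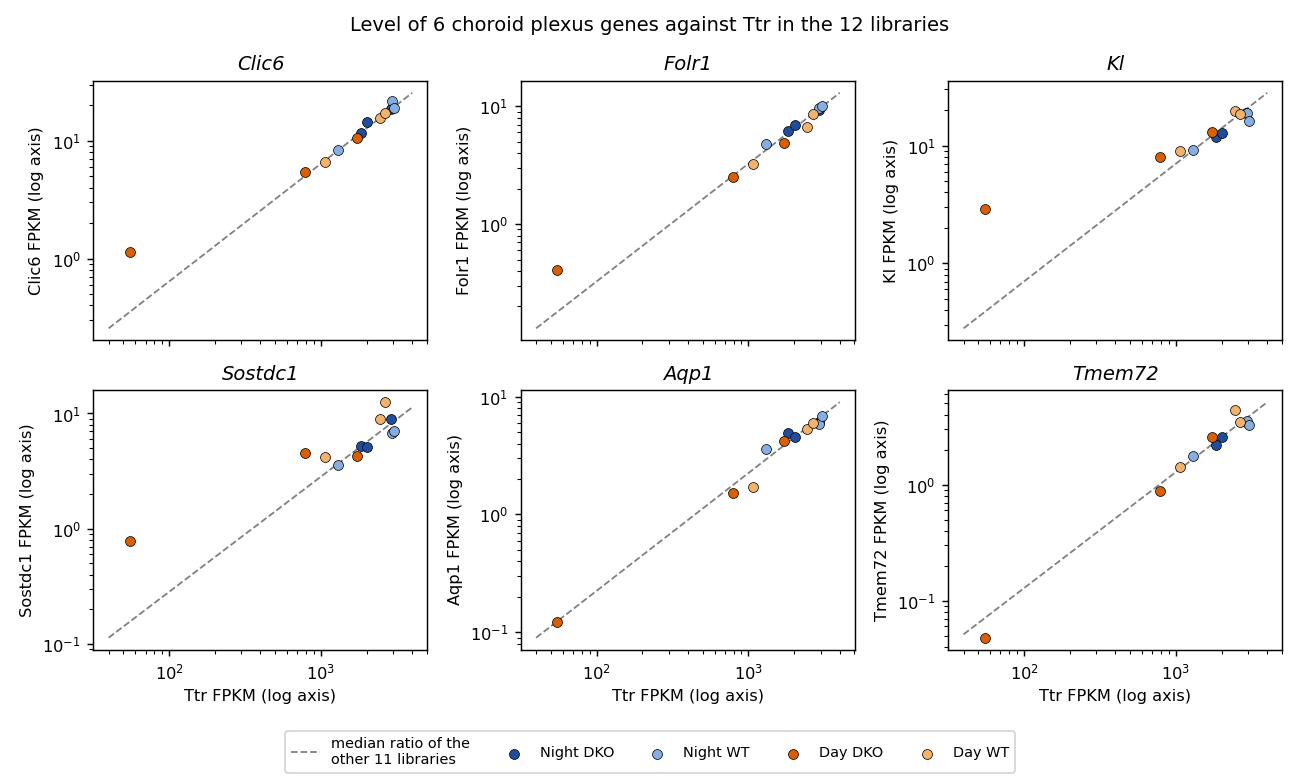
Level of Clic6, Folr1, Kl, Sostdc1, Aqp1 and Tmem72 against Ttr (FPKM, both axes logarithmic) in the 12 libraries, coloured by group; the dashed line is the median ratio to Ttr of the 11 libraries other than Day DKO replicate 2. That library lies at the left of each panel, above the line for Kl by a factor of 7.51 and below it for Tmem72, at 0.676 times the line. Tmem72 is at 0.0479 FPKM there, a level whose counting error is unknown.

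Which genes follow Ttr within groups was tested across the table with a slope, the change in log2(FPKM + 1) of a gene per unit of log2(FPKM + 1) of Ttr, with a mean for each group in the fit. A gene was called where limma's adjusted p over all 12688 genes was under 0.05. The slope was called for 18 genes, 0.142% of those tested, all positive, and 8 of the 18 were among the 9 choroid plexus genes other than Ttr. Clic6 had a slope of 0.55 ± 0.06 (SE; limma adjusted p = 0.00153), Aqp1 0.47 ± 0.06 (0.00505), Folr1 0.46 ± 0.05 (0.00153) and Kcnj13 0.45 ± 0.04 (0.00147). Kl had 0.42 ± 0.05 (0.00426), Sostdc1 0.42 ± 0.06 (0.0217), Tmem72 0.37 ± 0.05 (0.0143) and F5 0.34 ± 0.05 (0.0143). Otx2, at 0.25 ± 0.06, was not called (0.183). Adding 1 FPKM before the log flattens genes of low level: with 0.1 FPKM added, all 9 were called and their slopes were 0.47 to 0.85.

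These calls rested on the fit chosen. With all values quantile normalized 0 genes were called, and with no filter on low values 6 genes were called, of them 3 of the 9. Without Day DKO replicate 2, the library with the lowest Ttr, 86 genes were called, among them 8 of the 9. Otx2 was gained at 0.58 and Sostdc1 lost at 0.64 (limma adjusted p = 0.0801). In that fit the mean slope of the 9 was 0.72, against 0.41 with 12 libraries, and that of Clic6 was 0.92. The sizes of the slopes thus depended on this library. Without Day DKO replicate 1, 33 genes were called, and without Day DKO replicate 3, 8 genes, of them Folr1, Sostdc1, Clic6 and Kcnj13. The slope was positive for each of the 9 genes in all 21 fits. Of the 18 genes called with 12 libraries, 16 were called without Day DKO replicate 2.

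The 10 called genes outside the marker list made up 0.0789% of the 12679 others. Enpp2, which encodes the secreted lysophospholipase autotaxin, had the steepest slope at 0.58 ± 0.04 (limma adjusted p = 0.00019), with 16.8 FPKM in Day DKO replicate 2 and a median of 131 FPKM. Its median level was the highest of the 18. 1500015O10Rik, named Ecrg4 in RefSeq, encodes a secreted propeptide and had a slope of 0.57 ± 0.06 (0.0021), with 4.43 FPKM in that library and a median of 33.6 FPKM. Ltc4s, leukotriene C4 synthase, had 0.51 ± 0.06 (0.00505), and its likeness to the other genes was weaker once the extreme libraries were removed, as given below. Kcne2, a potassium channel subunit, had 0.43 ± 0.05 (0.00505), the tight junction gene Cldn2 0.39 ± 0.05 (0.00728) and the peptidase gene Ace 0.33 ± 0.04 (0.00728). The bicarbonate transporter gene Slc4a5 had 0.29 ± 0.05 (0.0352), the sulfatase gene Sulf1 0.29 ± 0.04 (0.0131), the carbonic anhydrase gene Car12 0.22 ± 0.04 (0.0449) and the fatty acid elongase gene Elovl7 0.21 ± 0.03 (0.0263). All but Ltc4s and Elovl7 were in lists of choroid plexus genes. All 10 had their lowest level in Day DKO replicate 2.

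Just outside the threshold were Cldn1 (slope 0.23) and C1qtnf5 (0.32), each with a limma adjusted p of 0.0512, Lbp (0.28; 0.0521), and Steap2 (0.19), Mia (0.25) and Krt18 (0.29), each at 0.0653. C1qtnf5 shares its locus with the choroid plexus and eye gene Mfrp (both chr9:44101770-44109187), which is listed at 0 in all libraries, so its reads cannot be assigned to either gene. At the other end no gene was called: Rtn4r (-0.10), Trit1 (-0.09), Snrpc (-0.13), Tmem251 (-0.11) and Kctd13 (-0.09) had the most negative statistics, with limma adjusted p of 0.129 to 0.170.

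As a second description, each gene was set against the mean of the 10 over the 12 libraries, group means subtracted. Enpp2 was the most alike, with Pearson's r = 0.995 and Spearman's rho = 0.923, and r = 0.991 without the 2 libraries farthest from the median of that mean, Day DKO replicate 2 and Day WT replicate 3. 1500015O10Rik came next, with r = 0.994, and 0.988 without them. Ace (0.987), Sulf1 (0.984), Cldn2 (0.984), Elovl7 (0.975), Steap2 (0.971), Kcne2 (0.970), Lbp (0.967), C1qtnf5 (0.965) and Slc4a5 (0.961) followed by r. Without those libraries their r was 0.930 or more. Ltc4s had r = 0.915, and 0.802 without them. An r above 0.9 was found for 45 genes outside the marker list, 0.355% of those tested.

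Lists of genes with other roles were read from the same fit, beside a median slope of -0.01 over all genes, 41.4% of them positive. Of 27 tested genes in a list of other choroid plexus epithelium genes, 5 were called (Enpp2, Cldn2, Ace, 1500015O10Rik and Sulf1), all 27 slopes were positive and the median was 0.22. Of 14 ion and water transport genes, 3 were called (Kcne2, Slc4a5 and Car12), 11 slopes were positive and the median was 0.12. Of 13 carriers of vitamins, hormones and nucleosides, 0 were called, 9 were positive at an unadjusted limma p under 0.05, against 2.99% of all genes, 12 slopes were positive and the median was 0.10. The steepest were the lactate transporter gene Slc16a8 (0.34) and the metalloreductase gene Steap1 (0.30). Of 7 transcription factors of the choroid plexus and roof plate, 0 were called, 1 passed an unadjusted p under 0.05 in either direction, against 8.72% of all genes, and the median was 0.05, with Msx1 at 0.13 and Lmx1a at 0.06. Without Day DKO replicate 2 the calls were 17 of 27, 6 of 14, 5 of 13 and 0 of 7, with medians of 0.50, 0.28, 0.27 and 0.10. With 0.1 FPKM added in place of 1 FPKM the calls were 12 of 27, 3 of 14, 4 of 13 and 0 of 7.

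Markers of cells that lie near the choroid plexus were read in the same way, with no test between lists. Of 12 genes of ependyma and motile cilia, 0 were called, 1 passed an unadjusted p under 0.05, 11 slopes were positive and the median was 0.03, with Mia at 0.25 and Tekt1 at 0.08. Without Day DKO replicate 2 the ependymal median was 0.15 and Dynlrb2 was called, beside a median of 0.10 for the 7 transcription factors. With 0.1 FPKM added in place of 1 FPKM, Mia was called (limma adjusted p = 0.00608). Of 16 genes of meningeal and choroid plexus stromal fibroblasts, 0 were called and 3 passed an unadjusted p under 0.05. Their median was -0.03, with Slc13a4 at 0.14 and Dcn at -0.07. With Folr1 as the covariate in place of Ttr, Slc13a4 was called (limma adjusted p = 0.0425). The median was -0.03 for 11 mural genes, 0.01 for 12 endothelial genes, 0.04 for 5 blood genes and 0.02 for 10 genes of neighbouring brain regions, with 0 called in each, and Vtn, Hba-a2 and Tac2 past an unadjusted p under 0.05. It was -0.02 for 14 hippocampal neuron genes, of which 2 had a positive slope, and -0.05 for 9 microglial genes, of which 0 did, and P2ry12 alone of both lists passed an unadjusted p under 0.05. In a list of Klotho and fibroblast growth factor receptor genes, Fgfr1 (-0.04), Fgfr2 (-0.03) and Fgfr3 (-0.02) did not pass. Klb, Fgfr4 and Fgf23, also listed, were below the filter on low values.

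**Figure D3:**
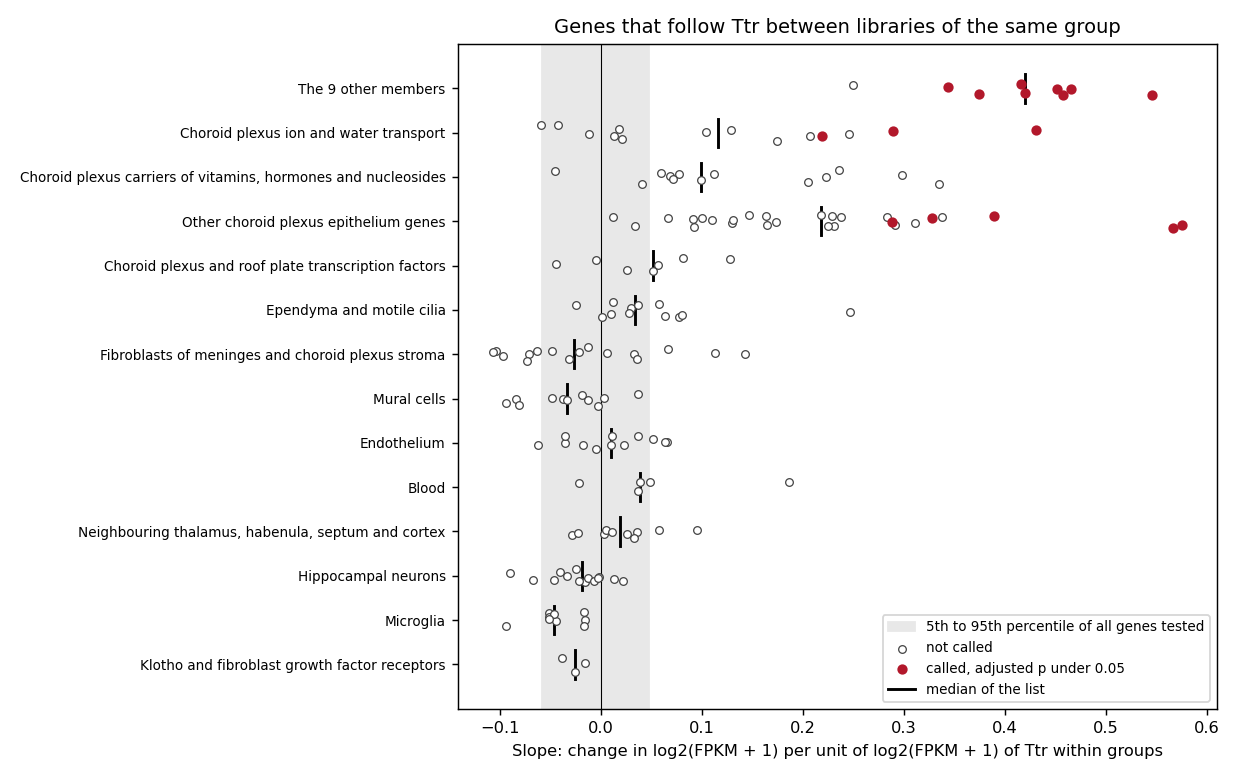
Slope on Ttr within groups for the 9 other choroid plexus genes and for 13 lists, each point a gene, filled where limma's adjusted p was under 0.05, with a bar at the median of the list and a grey band from the 5th to the 95th percentile of all genes tested. Filled points occur in 3 rows only: the 9 genes, the ion and water transport list and the list of other epithelium genes, with medians of 0.42, 0.12 and 0.22. With 0.1 FPKM added in place of 1 FPKM, 4 of 13 carriers and the ependymal gene Mia were also called.

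Group differences of the 10 genes did not pass the test in any comparison. By day, the means were 855 ± 837 FPKM of Ttr in Day DKO against 2056 ± 861 FPKM in Day WT, and 3.2 ± 2.10 FPKM of Sostdc1 in Day DKO against 8.56 ± 4.18 FPKM in Day WT (SD, n = 3 each). The difference of Day DKO from Day WT in log2(FPKM + 1) was -2.17 ± 0.90 for Ttr (SE; 95% interval -4.12 to -0.21; limma adjusted p = 0.252), -1.25 ± 0.42 for Sostdc1 (adjusted p = 0.165) and -0.52 ± 0.29 for Otx2 (adjusted p = 0.373). For the other 7 it was -1.28 for Clic6 to -1.0 for F5, with limma adjusted p of 0.174 to 0.286. Thus 0 of the 10 were called, against 1.18% of 12689 genes, 0.796% higher and 0.386% lower. At an unadjusted limma p under 0.05, 9 of the 10 were lower, all but Otx2, against 5.12% of genes. The 10 genes moved together between libraries, so counts of them here and in the next comparisons are not 10 separate observations. Of the 10, 0 had groups that did not overlap, against 5.26% of genes with all DKO values lower. The mean difference over the 10 was -1.16, and -0.56 without Day DKO replicate 2.

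At night the group means were close. Ttr averaged 2252 ± 570 FPKM in Night DKO and 2423 ± 971 FPKM in Night WT, Kl 14.4 ± 3.73 FPKM in Night DKO and 14.7 ± 4.99 FPKM in Night WT, and Otx2 1.41 ± 0.496 FPKM in Night DKO and 1.79 ± 0.843 FPKM in Night WT. The difference of Night DKO from Night WT ran from -0.18 for Otx2 to 0.12 for Sostdc1 and F5, and for Ttr it was -0.04 with a 95% interval of -1.99 to 1.92, so a change of several-fold either way is within the error. The limma adjusted p was 0.904 or more for all 10, and 0 of the 10 were called, against 0.0236% of genes, with 0 also at an unadjusted p under 0.05, against 9.18%. The groups overlapped for all 10, against 9.48% of genes with all DKO values lower and 5.73% with all higher. The direction turned with the library left out for each of the 10, and for Ttr also under quantile normalization, at 0.23. The mean difference over the 10 was -0.02, and 0.14 without Night WT replicate 1. The test of whether the genotype difference changed between night and day gave 2.13 ± 1.28 for Ttr and 1.37 ± 0.60 for Sostdc1, with limma adjusted p of 0.563 to 0.811 over the 10. It called 0 of the 10 and 0% of all genes, and at an unadjusted p under 0.05 Sostdc1 and F5 were higher, 2 of the 10, against 1.79% of genes. The mean over the 10 was 1.14, and 0.55 without Day DKO replicate 2.

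In DKO, levels were compared between night and day. For 7 of the 10 (Ttr, Folr1, Sostdc1, F5, Clic6, Kcnj13 and Aqp1) all 3 Night DKO values were above all 3 Day DKO values, against 12.9% of all genes. The highest Day DKO value was that of replicate 1 or 3 in each, so that leaving replicate 2 out changes none of these orders. Kcnj13 averaged 7.71 ± 1.41 FPKM in Night DKO and 2.58 ± 2.40 FPKM in Day DKO, and Clic6 14.9 ± 3.58 FPKM in Night DKO and 5.73 ± 4.75 FPKM in Day DKO. The difference of Night DKO from Day DKO was 2.38 ± 0.90 for Ttr (limma adjusted p = 0.251), 1.53 ± 0.52 for Clic6 (0.211), 1.52 ± 0.43 for Kcnj13 (0.146) and 1.45 ± 0.44 for Folr1 (0.166), and 0.53 ± 0.29 for Otx2 (0.414). Of the 10, 0 were called, against 0.299% of genes, while at an unadjusted limma p under 0.05 all but Otx2 were higher, 9 of the 10, against 10.3% of genes. Because the genes moved together between libraries, neither the 7 of 10 nor the 9 of 10 counts separate observations. The mean difference was 1.26, and 0.66 without Day DKO replicate 2.

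In WT the night and day levels lay in one range. Ttr averaged 2423 ± 971 FPKM in Night WT and 2056 ± 861 FPKM in Day WT, and Sostdc1 5.81 ± 1.91 FPKM in Night WT and 8.56 ± 4.18 FPKM in Day WT. The difference of Night WT from Day WT ran from -0.43 for Sostdc1 to 0.38 for Folr1, and 0 of the 10 were called (limma adjusted p of 0.579 to 0.964), against 1.67% of genes, and 0 at an unadjusted p under 0.05, against 22.3%. The mean difference was 0.12, and -0.04 without Night WT replicate 1. None of the 10 had groups apart, against 24.3% of genes with all night values higher and 4.37% with all lower. The 4 comparisons share groups in pairs, so they are not independent of each other.

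**Figure D4:**
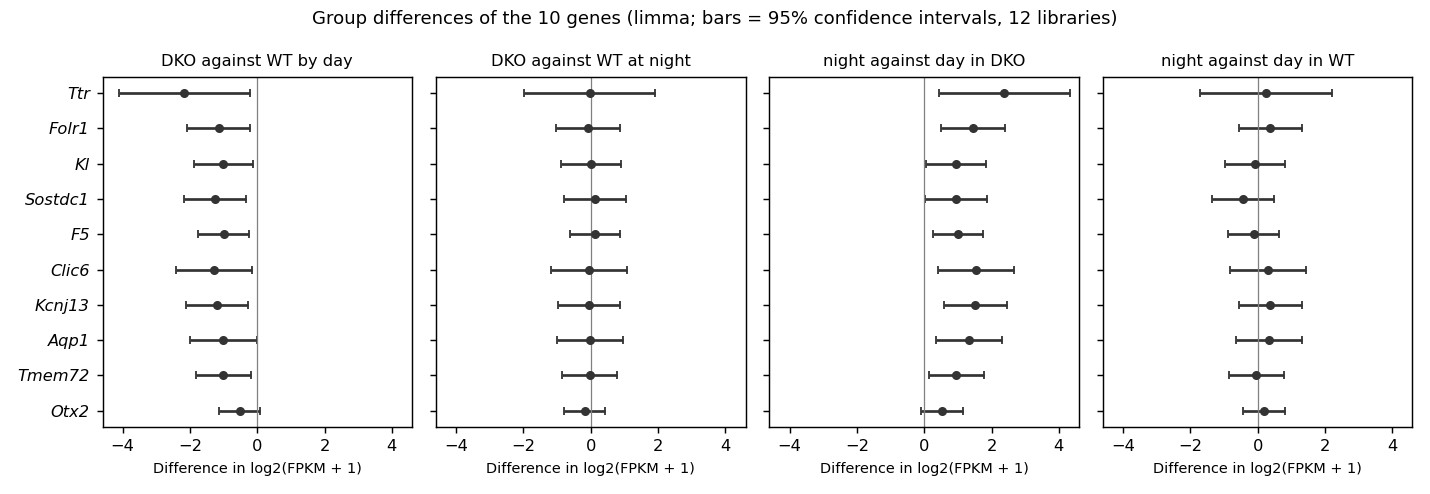
Difference in log2(FPKM + 1) of the 10 genes in 4 comparisons, with 95% confidence intervals from limma over 12 libraries. Points are below 0 for all 10 genes between DKO and WT by day and above 0 for all 10 between night and day in DKO, and close to 0 in the other 2 comparisons.

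The ratio of each gene to Ttr was then compared between libraries. Over the 11 libraries other than Day DKO replicate 2, the highest ratio to Ttr was 1.21 times the lowest for Clic6, 1.33 for Folr1, 1.47 for F5, 1.5 for Kcnj13 and 1.66 for Tmem72. It was 1.72 for Aqp1, 1.81 for Otx2, 1.92 for Kl and 2.51 for Sostdc1, the widest of the 9. Over the same libraries the levels themselves spanned 2.45-fold for Kl, 3.48-fold for Sostdc1 and 3.33-fold to 4.95-fold for the other 7. Over all 12 libraries the ratio of Kl ran from 5.31 to 52.6 FPKM per 1000 of Ttr, a wider span than the 6.72-fold of its level. Per 1000 FPKM of Ttr, Sostdc1 was at 2.32, 2.77 and 2.31 FPKM in Night WT and at 3.66, 4.72 and 3.94 FPKM in Day WT. F5 was at 1.16, 1.10 and 1.12 FPKM in Night WT and at 1.61, 1.44 and 1.45 FPKM in Day WT, and Kl at 6.41, 7.0 and 5.31 FPKM in Night WT and at 8.01, 7.03 and 8.34 FPKM in Day WT. All night values of these 3 genes were below all day values, against 0.205% of all genes, although the Kl groups were almost in contact. Folr1, at 3.33, 3.65 and 3.35 FPKM per 1000 of Ttr in Night WT and 2.74, 3.26 and 3.04 FPKM in Day WT, was apart in the other direction, against 0.0946% of genes. The ratio of a gene that does not follow Ttr carries the whole spread of Ttr, so these shares say little about genes that do follow it.

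In Night DKO, Kcnj13 was at 2.93, 3.32 and 4.22 FPKM per 1000 of Ttr and Aqp1 at 2.10, 2.70 and 2.24, whereas the ratios of F5 and Kl lay closer together. F5 was at 1.31, 1.32 and 1.32 FPKM per 1000 of Ttr in Night DKO, above the 1.10 to 1.16 FPKM of Night WT, against 0.15% of genes with all DKO ratios higher. Kl was at 6.30 to 6.47 FPKM in Night DKO and at 7.56 to 52.6 FPKM in Day DKO, apart as were 60.5% of all genes in that direction. In Day DKO, Sostdc1 was at 5.81, 14.1 and 2.47 FPKM per 1000 of Ttr, which enclosed the range of Day WT. In a fit with the level of Ttr as a covariate, chosen after the data were seen, none of the 9 was called in any comparison. Between night and day, the smallest limma adjusted p in WT and in DKO belonged to differences of -0.53 ± 0.21 for Sostdc1 between Night WT and Day WT (limma adjusted p = 0.152) and 0.45 ± 0.18 for Kcnj13 between Night DKO and Day DKO (limma adjusted p = 0.353).

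**Figure D5:**
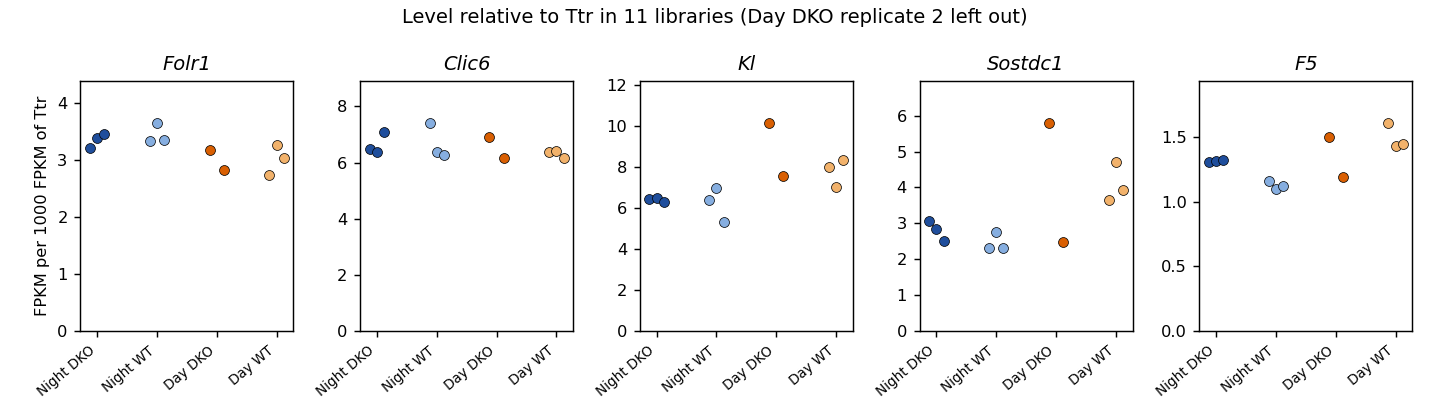
Level of Folr1, Clic6, Kl, Sostdc1 and F5 per 1000 FPKM of Ttr in the 11 libraries other than Day DKO replicate 2; each point is a library, and the axis starts at 0. Sostdc1 lies at 2.31 to 2.77 in Night WT and at 3.66 to 4.72 in Day WT, whereas Clic6 stays within 6.16 to 7.42 in all groups.

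Markers of other cells differed along with the 10 genes. The summed level of the 16 fibroblast genes was 52.8 to 71.0 FPKM in Day DKO against 86 to 119 FPKM in Day WT, with 5 of 16 called lower in limma, against 0.386% of all genes. The 11 mural genes summed to 45.2 to 54.0 FPKM in Day DKO against 53.2 to 78.4 FPKM in Day WT, with 4 called lower. Without Day DKO replicate 3, 7 genes of the whole table were called lower by day, so not all of these fibroblast and mural calls held there. The 16 ependymal genes summed to 18.9 to 21.0 FPKM in Day DKO against 22.5 to 35.1 FPKM in Day WT, with 0 of 12 tested called. The 9 microglial genes summed to 155 to 171 FPKM in Day DKO against 94.0 to 107 FPKM in Day WT. The 13 endothelial genes summed to 55.8 to 61.0 FPKM in Day DKO against 63.7 to 76.5 FPKM in Day WT, with 0 of 12 tested called. The 5 blood genes summed to 90.5 to 110 FPKM in Day DKO against 111 to 153 FPKM in Day WT, with Hbb-bt alone called lower, a globin gene whose reads can be shared with its near-identical copy Hbb-bs. Between night and day in DKO, the fibroblast genes summed to 90.1 to 96.2 FPKM in Night DKO against 52.8 to 71.0 FPKM in Day DKO, with Mgp alone called higher (0.181% of all genes). The ependymal genes summed to 24.7 to 35.6 FPKM in Night DKO against 18.9 to 21.0 FPKM in Day DKO, with 0 called. In Night DKO the fibroblast genes summed to 90.1 to 96.2 FPKM against 119 to 163 FPKM in Night WT, while the 10 choroid plexus genes overlapped. Their part in the differences of the 10 genes was not tested.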

How the data were processed

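Libraries were stranded TruSeq total RNA libraries after removal of ribosomal RNA, per the labels' protocols, 3 in each of 4 groups. The authors deposited 1 table per library with 1 FPKM value per gene, a unit read from the values. Build GRCm38.p6 is named in the submitters' processing notes, and the sources used here give no aligner, quantifier or annotation. Depth is unknown from FPKM alone, hence no count model or counting error was used. Symbols of 27 genes that had turned into dates were restored from gene IDs.

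Values were used as log2(FPKM + 1), which understates changes of genes of low level. A gene was tested if 3 or more libraries had 0.5 FPKM or more, which left 12689 genes, with limma 3.58.1 (R 4.3.3, intensity trend, 1 mean per group, all 12 libraries, two-sided, Benjamini-Hochberg over all genes tested). All 10 choroid plexus genes passed this filter. Genotype differences by day and at night, night against day in each genotype, their interaction, and the slope on the log2 level of Ttr were fitted. The fits were tested on simulated data. The main fit used no block for replicate number, although same-numbered libraries tended to be more alike, as given below. Promoter windows came from a RefSeq table. Alternatives were the added constant, the filter, scaling, library weights, the trend, a replicate block, the groups in the fit, the covariate and each library left out.

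The genes and lists were chosen with earlier results of these data known. Named genes were the 10, Psen2, the 15 largest positive and 5 most negative slope statistics at a mean log2 level of at least 1 and a symbol that is not provisional, up to 4 genes per list by p, and the 10 closest to the mean of the 10. Other genes called in the slope fit, and Igf2, Bmp6, Bmp7, Dynlrb2, Hbb-bt, Mgp and Slc12a2, were chosen after their values were seen. Some named genes are not reported here.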

Additional observations from a re-analysis of the deposited data

How the results depend on the processing

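None of the 10 genes was called in any group comparison under any of the alternatives run, and the 9 slopes on Ttr kept their sign in all 21 fits. Counts over all genes moved more. By day, 150 genes were called (101 higher and 49 lower), against 131 (66 and 65) with median-of-ratios scaling, 96 (51 and 45) with quantile normalization, 26 with no filter, 50 with only the groups compared in the fit, 5 with Ttr as a covariate and 13 to 205 with a library left out. At night, 3 genes became 5 with quality weights, 5 with the replicate block, 15 with only the groups compared and 2 to 38 with a library left out. Night against day in WT gave 212 (192 and 20), against 64 with no filter, 57 (23 and 34) with median-of-ratios scaling, 72 (26 and 46) with quantile normalization, 418 with quality weights, 99 with no trend, 23 with only the groups compared and 1 to 213 with a library left out. Night against day in DKO gave 38 (23 and 15), against 21 with no filter, 65 (24 and 41) with median-of-ratios scaling, 63 (24 and 39) with quantile normalization, 12 with Ttr as a covariate and 19 to 55 with a library left out. The interaction gave 0, or 0 to 1 with a library left out.

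The slope on Ttr gave 18 genes and 8 of the 9, against 46 genes with 0.1 FPKM added, 6 genes and 3 of the 9 with no filter, and 0 and 0 with quantile normalization. It gave 75 genes with Folr1 as the covariate, 56 others with the mean of the 10 as the covariate, and 8 to 86 genes and 4 to 8 of the 9 with a library left out. Libraries with the same replicate number tended to be more alike than others. They correlated at -0.116 to 0.247, with 7 of 18 pairs over 0.1, against 4 of 36 pairs with different numbers. The best match of 9 of 12 libraries had their own number, and whether the numbers pair the libraries was not tested. With the replicate block the slope was called for 12 genes and 6 of the 9, and the day comparison for 178 genes. F5, Tmem72, Ace, Cldn2, Sulf1, Slc4a5, Car12 and Elovl7 were not called with the block. The cause of these shifts was not tested.

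Mean differences over the 10 with a library left out were -1.63 to -0.56 by day, -0.31 to 0.14 at night, -0.24 to 0.41 between night and day in WT, 0.66 to 1.73 in DKO and 0.55 to 1.61 for the interaction. At night, the difference of DKO from WT crossed 0 for all 10: Ttr -0.43 to 0.17, Folr1 -0.38 to 0.0939, Kl -0.28 to 0.20, Sostdc1 -0.14 to 0.26, F5 -0.17 to 0.26, Clic6 -0.44 to 0.20, Kcnj13 -0.34 to 0.13, Aqp1 -0.24 to 0.14, Tmem72 -0.25 to 0.11 and Otx2 -0.44 to 0.0174. It also turned for Kl with quality weights (-0.11) and for Ttr with quantile normalization (0.23). Between night and day in WT it crossed 0 for Ttr (-0.17 to 0.64), Kl (-0.42 to 0.21), F5 (-0.43 to 0.16), Clic6 (-0.098 to 0.70), Aqp1 (-0.0889 to 0.60), Tmem72 (-0.38 to 0.20) and Otx2 (-0.099 to 0.44). Slopes near 0 that crossed it with a library left out were Fgfr1 (-0.0463 to 0.00553), Fgfr2 (-0.0354 to 0.0371), Fgfr3 (-0.0244 to 0.000164; 0.00344 with the replicate block), Foxc1 (-0.0595 to 0.034), Hba-a2 (-0.13 to 0.24), Lef1 (-0.0367 to 0.0309; 0.00181 with quality weights), Ly6c1 (-0.0838 to 0.0163), Pdgfrb (-0.043 to 0.0168), Rorb (-0.0331 to 0.0473) and Tac2 (-0.0462 to 0.11). The depth of the libraries is unknown, so levels under about 0.5 FPKM, as in Day DKO replicate 2, carry a counting error that cannot be given.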

Other observations

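The list of other choroid plexus epithelium genes held 27 tested genes. Of them, 3 were called lower by day in DKO (limma adjusted p under 0.05), against 0.386% of all genes. At an unadjusted limma p under 0.05, 19 of the 27 were lower, against 5.12% of genes, and the median difference of the list was -0.69. Enpp2, at -1.41, had a larger difference than the called genes but was not called (limma adjusted p = 0.211). None of the 3 called genes was called in the slope fit on Ttr, although Igf2 was called with Folr1 as the covariate in place of Ttr. Igf2, a growth factor gene expressed in choroid plexus and meninges, was at 8.61, 5.29 and 9.02 FPKM in Day DKO against 16.0, 24.2 and 14.0 FPKM in Day WT. All Day DKO values were below all Day WT values. The log2 difference was -1.14 ± 0.19 (SE; limma adjusted p = 0.0209), and the slope on Ttr was 0.16 ± 0.04 (limma adjusted p = 0.215). Bmp6, a bone morphogenetic protein gene, was at 1.77, 1.92 and 2.32 FPKM in Day DKO against 3.43, 4.88 and 3.86 FPKM in Day WT. Its groups were apart too, and its lowest value was not in Day DKO replicate 2. The log2 difference was -0.75 ± 0.11 (limma adjusted p = 0.0123), and the slope was 0.03 ± 0.03 (limma adjusted p = 0.835). Bmp7, of the same family, was at 1.19, 1.14 and 1.13 FPKM in Day DKO against 1.89, 2.35 and 1.80 FPKM in Day WT, with a log2 difference of -0.48 ± 0.10 (limma adjusted p = 0.0373) and a slope of 0.01 ± 0.03 (limma adjusted p = 0.953).

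At night the same genes were not called. Igf2 was at 16.7, 15 and 13.4 FPKM in Night DKO against 19.9, 16.1 and 17.4 FPKM in Night WT, with a log2 difference of -0.23 ± 0.19 (limma adjusted p = 0.769). Bmp6 differed by -0.21 ± 0.11 and Bmp7 by -0.26 ± 0.10 (limma adjusted p of 0.581 and 0.454). By day their direction was shared by the fibroblast genes Slc13a4 (-0.97), Pcolce (-0.88), Mgp (-0.80), Thbs1 (-0.59) and Bgn (-0.50), and by the mural genes Tagln (-1.25), Acta2 (-1.03), Myl9 (-0.95) and Myh11 (-0.85), all called lower in Day DKO (limma adjusted p of 0.0161 to 0.0469). Of these 9 genes, Slc13a4 and Pcolce had the steepest slopes on Ttr, at 0.14 and 0.11. None was called in the slope fit, although Slc13a4 was called with Folr1 as the covariate in place of Ttr (limma adjusted p = 0.0425). The calls by day depended on the fit. Over the whole table, 7 genes were called lower by day without Day DKO replicate 3, and 8 without Day WT replicate 2. With Ttr as a covariate, 3 were. Not all genes named here as lower by day can be among them.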
